A study of Rattus norvegicus with 16 samples.

Results

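The contralateral and sham DRG of young Sprague-Dawley rats, the control groups against which a nerve injury is read, were compared with each other across 31042 Affy_IDs. The rule took the 2 arrays of the young contralateral group and the 3 arrays of the young sham group, 5 of the 16 arrays of the series, on the deposited log2 GC-RMA scale after the Affymetrix control probe sets had been dropped. In the series, spared nerve injury (SNI) cut and tied the common peroneal and tibial branches of the sciatic nerve and left the sural branch intact, and sham surgery exposed the nerves without cutting them. Pups were operated on at 10 days of age and adult male rats at 2 months, and the L4 and L5 DRG were taken 7 days later, so that the young ganglia were 17 days old.

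Each young array held RNA pooled from 8 ganglia of 4 pups, and each adult array RNA from 6 ganglia of 3 rats. The young sham ganglia came from the operated side of sham rats, while the young contralateral ganglia came from the un-operated side of SNI rats. All the rats of both groups went through anaesthesia and surgery, and the groups differed at once in the side taken and in the injury the animal carried, which cannot be told apart here. The spread between arrays was a spread between pools, and the sex of the pups was not given in the sources used here. Of the 18 arrays made, the authors removed 2 as outliers before the file was made, 1 of them young contralateral. The other groups, adult sham, adult contralateral and adult SNI with 3 arrays each and young SNI with 2, entered the limma fit for its estimate of variance and are given below beside the young controls.

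A DRG holds the cell bodies of sensory neurons wrapped by satellite glia, with Schwann cells, resident macrophages and blood vessels between them. When the peripheral axon is cut, the neuron switches on a regeneration programme led by the transcription factor ATF3, with the growth-associated protein SPRR1A and the neuropeptides galanin and VIP among its products. Macrophages in the ganglion take up debris and present peptides on MHC class II molecules, whose genes share a conserved promoter module of X and Y boxes.

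Some features of the arrays preceded any comparison of groups. Sex chromosome genes differed between the pools: Xist, the RNA that silences an X chromosome in females, read 11.87, 2.36 and 9.77 on the log2 scale in young sham arrays 1, 2 and 3 and 2.35 and 11.51 in young contralateral arrays 1 and 2. Sham array 2 and contralateral array 1 were at the Xist level of the male adults, and the split ran across the groups. Eif2s3y, a Y-linked translation factor, read 8.97, 12.15 and 11.48 in the sham arrays and 12.40 and 10.03 in the contralateral arrays. Uty, also Y-linked, did not follow this split, at 8.64, 8.28 and 8.08 in sham and 8.07 and 8.33 in contralateral. The neuronal lists were alike: 18 nociceptor genes had a mean between 9.60 and 9.77 in all 5 arrays and 16 genes of large sensory neurons a mean between 11.08 and 11.31, so the defining neuronal markers of the labelled tissue were present. Markers of central neurons and glia had means between 2.32 and 2.81 in these arrays, whereas young SNI array 2 reached 8.54 and entered this comparison only through the shared variance.

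Promoters of injury genes that the rule named, and of MHC class II genes chosen after values were seen, are shown first. They are from RefSeq on build GRCr8, each running from 250 bases before to 50 bases after the annotated start. They are written 5′ to 3′ on the strand of the gene. In the injury genes, capitals mark TGACG (the first bases of a cAMP response element) in Vip and Gal and TGACTCA (an AP-1 site) in Sprr1a, on either strand. Atf3 is not shown.
Vip, chr1:44470230-44470529, plus strand: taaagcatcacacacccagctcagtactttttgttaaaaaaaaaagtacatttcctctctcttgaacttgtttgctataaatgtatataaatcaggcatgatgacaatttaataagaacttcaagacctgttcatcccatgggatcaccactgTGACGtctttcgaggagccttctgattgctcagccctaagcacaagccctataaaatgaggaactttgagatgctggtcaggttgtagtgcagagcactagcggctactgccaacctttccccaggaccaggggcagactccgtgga
Gal, chr1:210084523-210084822, minus strand: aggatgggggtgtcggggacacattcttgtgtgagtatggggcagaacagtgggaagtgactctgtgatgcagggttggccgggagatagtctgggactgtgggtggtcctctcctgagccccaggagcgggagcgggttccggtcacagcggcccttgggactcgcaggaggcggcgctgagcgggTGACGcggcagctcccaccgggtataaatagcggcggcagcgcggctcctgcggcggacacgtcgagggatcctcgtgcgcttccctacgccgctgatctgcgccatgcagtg
Sprr1a, chr2:180752576-180752875, minus strand: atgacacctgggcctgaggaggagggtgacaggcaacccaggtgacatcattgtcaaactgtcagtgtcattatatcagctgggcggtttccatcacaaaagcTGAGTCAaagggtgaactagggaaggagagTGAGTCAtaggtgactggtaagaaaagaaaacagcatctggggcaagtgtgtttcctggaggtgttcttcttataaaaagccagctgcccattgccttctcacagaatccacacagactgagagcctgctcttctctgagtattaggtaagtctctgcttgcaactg
TGACG begins 97 bases before the start of Vip and 63 bases before that of Gal, and the pair of TGACTCA sites of Sprr1a, read on the opposite strand, begin 147 and 117 bases before its start.

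In the MHC class II genes, capitals mark ATTGG, the core of the Y box (CCAAT on the other strand), and in RT1-Ba also the full cAMP response element TGACGTCA.
RT1-Ba, chr20:4576807-4577106, plus strand: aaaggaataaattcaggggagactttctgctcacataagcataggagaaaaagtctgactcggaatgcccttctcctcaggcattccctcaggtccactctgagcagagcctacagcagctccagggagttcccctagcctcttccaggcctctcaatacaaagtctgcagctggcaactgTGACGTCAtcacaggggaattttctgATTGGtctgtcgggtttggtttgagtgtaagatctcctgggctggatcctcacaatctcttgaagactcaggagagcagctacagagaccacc
RT1-Da, chr20:4515165-4515464, plus strand: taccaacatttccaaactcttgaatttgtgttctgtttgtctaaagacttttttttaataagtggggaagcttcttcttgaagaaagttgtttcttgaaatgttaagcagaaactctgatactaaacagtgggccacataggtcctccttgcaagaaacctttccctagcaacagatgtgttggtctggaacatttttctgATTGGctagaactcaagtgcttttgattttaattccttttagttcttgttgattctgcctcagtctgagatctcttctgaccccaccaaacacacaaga
RT1-Db1, chr20:4560113-4560412, minus strand: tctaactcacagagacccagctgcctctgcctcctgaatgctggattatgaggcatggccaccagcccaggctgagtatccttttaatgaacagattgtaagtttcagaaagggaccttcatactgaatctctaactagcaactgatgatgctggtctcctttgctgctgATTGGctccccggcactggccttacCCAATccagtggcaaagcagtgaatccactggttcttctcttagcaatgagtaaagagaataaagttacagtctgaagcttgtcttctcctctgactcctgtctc
ATTGG begins 43 bases before the start of RT1-Ba, 49 before that of RT1-Da and 80 before that of RT1-Db1, and RT1-Db1 holds a further copy on the opposite strand 55 bases before its start. Of the 6 MHC class II genes with a promoter in the table, 6 held ATTGG on 1 strand or the other, against 37.5% of 33469 promoters. Of 21 neuronal injury genes with a promoter, 8 held TGACG and 2 held TGACTCA, against 21.2% and 4.63% of all promoters, and TGACGTCA was in 3 of them against 1.83% of all. The counts include the genes shown, and the motifs were chosen after values were seen. These letters are a description of the windows and not a measure of binding.

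The first question was whether the control groups differed at all. With limma and Benjamini-Hochberg adjustment, 0 of 31042 Affy_IDs passed an adjusted p of 0.05 (0.0%), and the smallest adjusted p was 0.0516. At an unadjusted p under 0.05 there were 697, of which 448 were higher in contralateral DRG (1.44% of all) and 249 lower (0.802%). Groups that did not overlap were found for 1517 Affy_IDs with both contralateral arrays above every sham array (4.89%) and for 1453 with both below (4.68%). With 2 arrays against 3 this comparison was coarse. The unadjusted 95% interval of a difference reached 0.421 to either side for the median Affy_ID and 0.963 at the 90th percentile. These widths are not a limit of detection, which depends on the spread of each Affy_ID. The Affy_ID of smallest p, which has no gene symbol, differed by 0.49. Differences over 1 in size did not pass after adjustment either. The absence of calls does not show that the groups were equal. Other settings gave 2 passing Affy_IDs with an intensity trend, 2 with array weights and 4 with Xist as a covariate. Leaving out contralateral array 2 gave 204 (199 higher), led by Nrap, a protein of muscle attachment sites, at 9.01 in contralateral array 1 and 2.31 to 2.57 in sham. Leaving out contralateral array 1 gave 24 (21 higher), among them Ucp1, the uncoupling protein of brown fat, at 4.40 in contralateral array 2 and 2.08 to 2.18 in sham. There were 8 without sham array 3, and 1 each without sham array 1, sham array 2, adult sham array 1 or adult SNI array 3. The difference was over 1 in size for 245 Affy_IDs higher and 122 lower in contralateral DRG.

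The order of the named genes by p gave a pair of muscle genes just outside the threshold. Sgca, a sarcoglycan of the muscle membrane, read 1.93, 2.46 and 2.52 in sham arrays 1 to 3 and 3.83 and 3.58 in contralateral arrays 1 and 2, a difference of 1.40 (95% interval 1.03 to 1.78, limma adjusted p = 0.0516). Tmem38a, an ion channel of the muscle calcium store, read 4.82, 4.71 and 4.78 in sham and 5.88 and 5.82 in contralateral, a difference of 1.08 (95% interval 0.79 to 1.37, limma adjusted p = 0.0516). The groups did not overlap for either gene, and Sgca was low on the array.

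**Figure D1:**
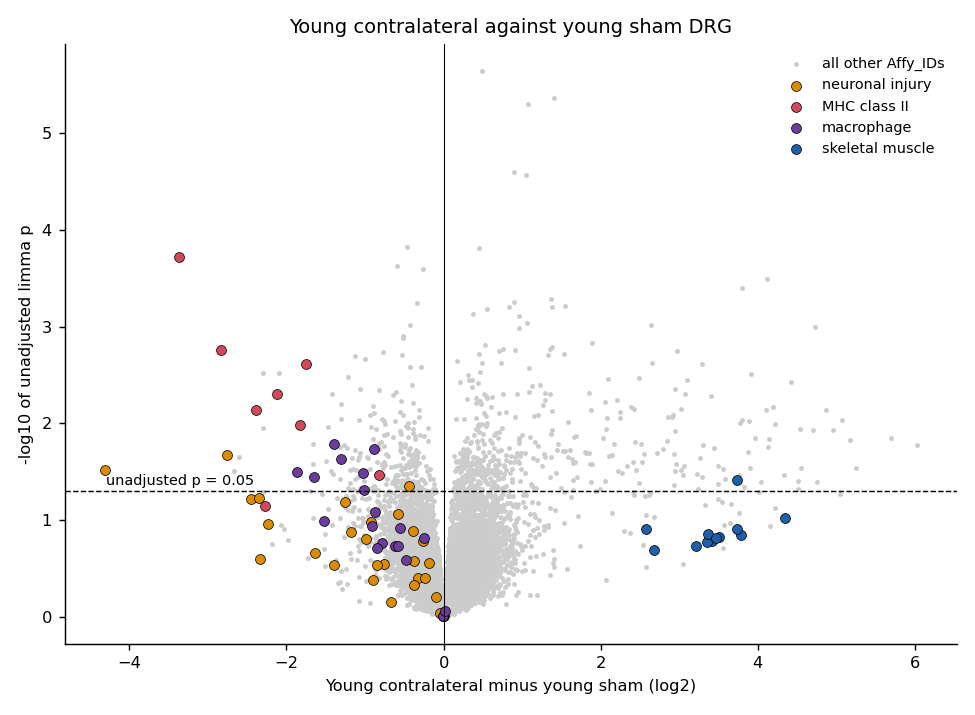
Difference between young contralateral and young sham DRG on the log2 scale (horizontal axis) against the −log10 of the unadjusted limma p (vertical axis), 1 point per Affy_ID, with 4 gene lists in colour. MHC class II and injury genes lie to the left, skeletal muscle genes to the right between 2.58 and 4.35, and no point passed the adjusted threshold.

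The 4 injury genes were graded across the 5 arrays of both groups. Atf3 read 9.49, 11.00 and 7.75 in sham arrays 1, 2 and 3 and 9.06 and 4.87 in contralateral arrays 1 and 2. Contralateral array 1 lay between sham arrays 1 and 3, so the groups overlapped, and contralateral array 2 was below them all. The contralateral minus sham difference was −2.45 (95% interval −5.03 to 0.14, limma adjusted p = 1.0).

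Sprr1a read 8.24, 9.92 and 3.50 in the sham arrays and 7.56 and 2.22 in the contralateral arrays. Gal, the galanin gene, read 12.81, 13.84 and 10.71 in sham and 12.33 and 7.89 in contralateral. Vip read 10.03, 11.52 and 8.09 in sham and 9.28 and 1.87 in contralateral. All 4 genes put the arrays in 1 order, from contralateral 2 at the bottom through sham 3, contralateral 1 and sham 1 to sham 2 at the top, and their mean went along it from 4.21 through 7.51, 9.56 and 10.14 to 11.57. The order alternates between the groups, and the 2 contralateral pools stood 4.19 apart for Atf3, a fold of 18.3; for Vip contralateral array 2 was at the floor of the array, so that no fold is given.

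The differences between the group means were −2.33 for Sprr1a (95% interval −6.58 to 1.92), −2.34 for Gal (−4.80 to 0.11) and −4.31 for Vip (−8.13 to −0.48), each with a limma adjusted p of 1.0. Without contralateral array 2 the difference of Sprr1a turned to 0.34. For Atf3, Sprr1a and Gal the range within the sham group (3.25, 6.42 and 3.13) was larger than the difference between the groups.

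The adult arrays gave a scale for these levels, and they share no array with the young controls. In adults, Atf3 was between 5.70 and 7.27 in the 6 sham and contralateral arrays and between 11.60 and 11.81 in the 3 SNI arrays. Vip lay between 1.89 and 6.37 in the adult controls and between 10.93 and 11.30 in adult SNI. The library labelled young sham replicate 2, at 11.52, thus read above every adult SNI array, and for Gal, at 13.84, it did too. For Atf3, at 11.00, it was below every adult SNI array, and for Sprr1a, at 9.92, within their range (9.58 to 9.97). Contralateral array 2 read below every adult control for Atf3 (4.87). It was at the floor for Vip (1.87) and Sprr1a (2.22), as the lowest adult controls were, and for Gal, at 7.89, it was between the adult contralateral arrays (7.43 to 7.74) and the adult sham arrays (8.89 to 9.63). The young SNI arrays read 7.77 and 10.17 for Atf3, and the library labelled young SNI replicate 1 was therefore below 3 of the 5 young control arrays. No array was moved from the group its labels give, and whether labels and pools match was not tested.

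**Figure D2:**
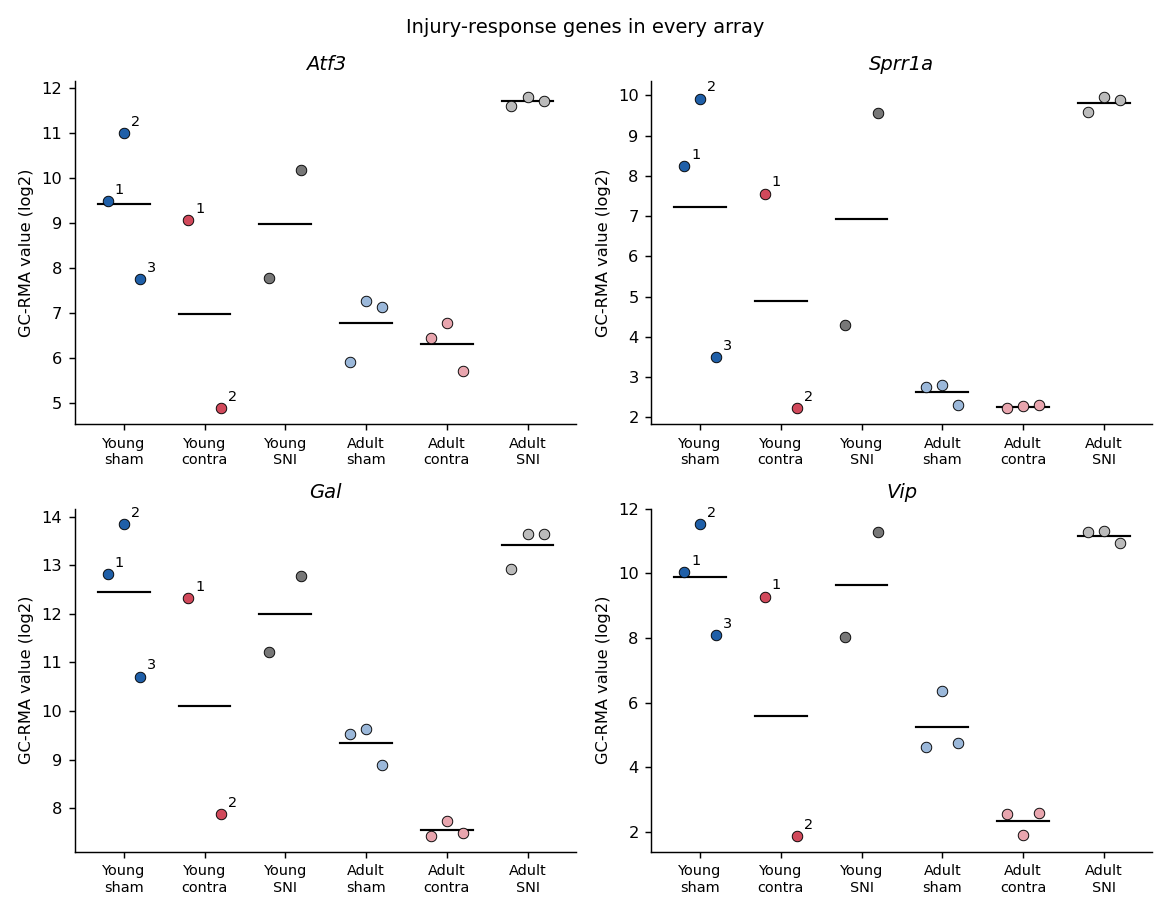
Log2 GC-RMA values of Atf3, Sprr1a, Gal and Vip in all 16 arrays, 1 point per array and a bar at each group mean; the young sham and contralateral arrays carry their replicate number. In each panel contralateral 2 is lowest of the young control arrays and sham 2 highest, with contralateral 1 among the sham arrays.

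The same order was counted across the genome. Of 31042 Affy_IDs, 565 (1.82%) followed it and 196 (0.631%) ran the opposite way, and with a range over 1 across the arrays the counts were 193 and 59. The rule that named the 4 genes fixed this order, so their own place in it is a description. Of the 26 other neuronal injury genes, 11 followed the order and 0 its reverse. Over all genes that followed the order, the 15 of largest range across the 5 arrays were the 4 genes themselves and, first, Tslp, a cytokine of epithelia and sensory neurons, Npy, the neuropeptide that injured large neurons make, Reg3b, a secreted lectin of injured neurons, Tgm1, a transglutaminase, and Krt19, a keratin. The rest of these were Ildr2, Ankrd1, Stac2, Cldn4, Mx2 and Ptprh.

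Tslp read 8.45, 9.77 and 6.67 in sham and 7.61 and 3.65 in contralateral, against 3.60 to 4.29 in adult sham arrays and 9.28 to 10.25 in adult SNI. Npy read 12.08, 13.56 and 10.06 in sham and 11.65 and 7.67 in contralateral. Reg3b read 8.45, 9.33 and 6.74 in sham and 7.33 and 3.50 in contralateral. For these 3 genes sham array 2 was the highest array and contralateral array 2 the lowest, with contralateral array 1 among the sham arrays. That was fixed in advance, since they were named for following the order of the injury genes. Krt19, named in the same way, read 6.41, 7.83 and 3.21 in sham and 3.93 and 2.50 in contralateral, at lower levels.

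Over the whole neuronal injury list the mean was 8.30, 9.14 and 7.23 in the sham arrays and 8.01 and 6.41 in the contralateral arrays, and the groups overlapped. The rule named Atf3, Sprr1a, Gal and Vip. Of the other 26 genes, 25 had a difference below 0 (42.8% of all Affy_IDs). At an unadjusted p under 0.05, 2 were lower, Reg3b and Adcyap1 (0.802% of all Affy_IDs). For 3, Csf1, Ecel1 and Crem, both contralateral arrays lay below every sham array (4.68% of all Affy_IDs). For Ecel1, sham array 3 (2.63) and the contralateral arrays (2.61 and 2.60) were at the floor, as in the adult controls (2.56 to 2.67), and carry no order. Crem was apart by a narrow margin, at 9.08 in sham array 3 and 9.05 in contralateral array 1. The median difference of the 26 was −0.51 beside 0.01 over all Affy_IDs, −0.22 without contralateral array 2 and −0.19 without sham array 2, and with the 4 genes it was −0.72. In the other direction no member passed. Not every gene of the programme took part: Il6 read 2.35 to 2.42 and Serpinb2 2.25 to 2.37 in all 5 arrays, at the floor of the array, while adult SNI reached 5.67 and 7.16.

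Several other members differed less than the neuropeptides. Gap43, a growth-cone protein already abundant in young ganglia, read 13.84, 14.03 and 13.41 in sham and 13.60 and 13.39 in contralateral. Gadd45a, a stress-response protein, read 10.38, 11.29 and 9.42 in sham and 10.08 and 8.79 in contralateral. Adcyap1, which encodes PACAP, read 9.90, 9.78 and 9.42 in sham and 8.98 and 9.53 in contralateral, a difference of −0.45 (95% interval −0.88 to −0.01, limma adjusted p = 1.0). Csf1, the growth factor of macrophages and microglia, read 7.45, 7.01 and 7.19 in sham and 6.02 and 6.72 in contralateral, 1 of the few members whose groups did not overlap. Adcyap1 and Csf1 were lowest in contralateral array 1, not in array 2, and fell outside the order.

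Genes that adult SNI raised gave a list from contrasts of adult arrays, but the variance in the fit was shared with the young arrays. A wide spread among the young arrays thus made a gene less likely to be listed. Atf3, Sprr1a, Gal and Vip were not in the list. Against adult sham 149 Affy_IDs passed (0.48%) and against adult contralateral 321 (1.03%), and 140 passed both in the same direction, 132 of them higher. That number depended on single adult arrays: it was 29 without adult sham array 2, 37 without adult sham array 1 or adult SNI array 2, 46 without adult contralateral array 1, 61 without adult contralateral array 3, 71 without adult contralateral array 2 or adult SNI array 3, 83 without adult sham array 3 and 214 without adult SNI array 1. Of the 132, 119 had a lower mean in young contralateral than in young sham DRG (90.2%, against 42.8% of all Affy_IDs), 29 were below every sham array (22.0%, against 4.68%) and 1 was above. Their median difference was −0.32, and −0.16 without sham array 2, with the list made anew; over the lists made without 1 adult array it was −0.36 to −0.20. At an unadjusted p under 0.05, 23 were lower (0.802% of all Affy_IDs) and 0 higher (1.44%). The order of the injury genes was followed by 33 of the 132 (25.0%, against 1.82%). The mean of the list was 7.02, 7.38 and 6.59 in sham and 6.69 and 6.41 in contralateral arrays. Contralateral array 2 was within the range of the adult controls (6.32 to 6.45), and the other 4 arrays were between it and adult SNI (8.23 to 8.53).

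Pairs of arrays were then set against the adult SNI effect. Across 31042 Affy_IDs, the difference of sham array 2 minus contralateral array 2 correlated with the adult SNI effect (SNI minus the mean of the 6 adult controls) at r = 0.536, and that of contralateral array 1 minus contralateral array 2, both of 1 group, at r = 0.185. For the other differences of sham minus contralateral, r was 0.182 (arrays 1 and 1), 0.468 (1 and 2), 0.399 (2 and 1), −0.007 (3 and 1) and 0.267 (3 and 2). Within the sham group it was −0.193 for array 1 minus 2, 0.304 for 1 minus 3 and 0.388 for 2 minus 3. These correlations are across Affy_IDs, which are not independent, and each young array enters several of them.

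**Figure D3:**
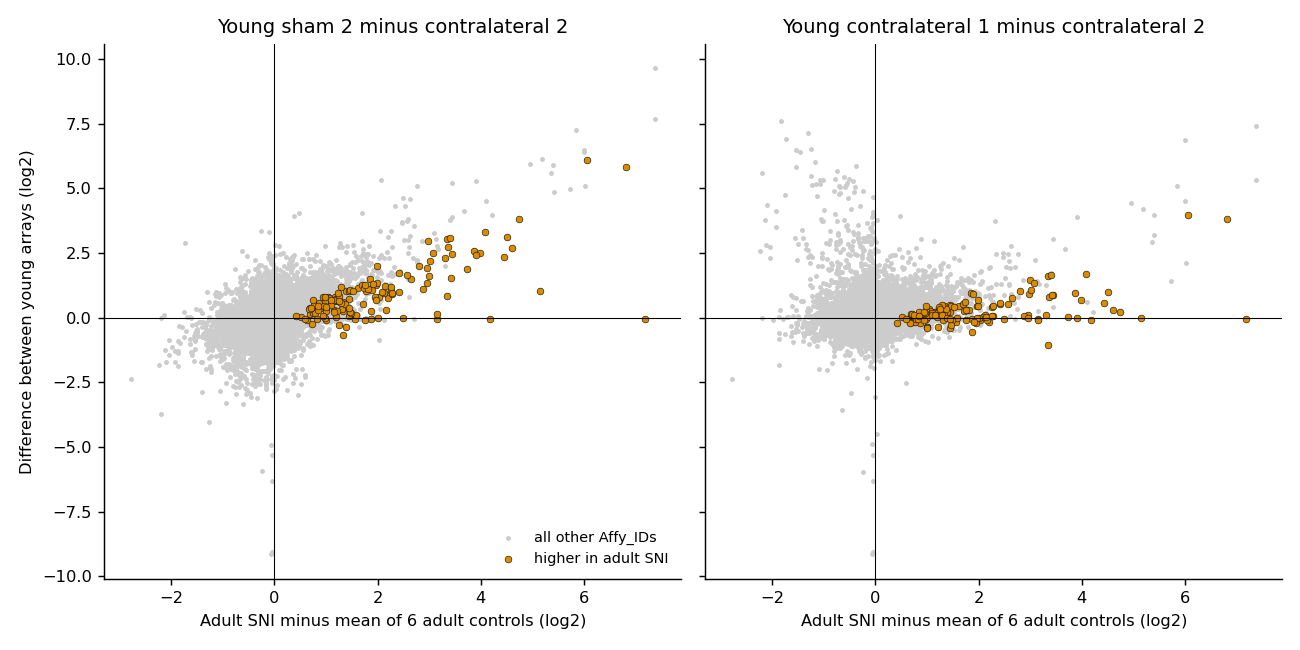
Adult SNI minus the mean of the 6 adult control arrays (horizontal axis, log2) against a difference between young control arrays (vertical axis, log2), 1 point per Affy_ID, with the 132 Affy_IDs higher in adult SNI in orange. Left, sham 2 minus contralateral 2 (r = 0.536); right, contralateral 1 minus contralateral 2 (r = 0.185), in which the upper left points include muscle genes.

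The number of Affy_IDs more than 1 log2 unit apart did not sort the arrays by group. It was 332 (1.07%) between sham array 3 and contralateral array 2, the closest pair and one of different groups. Within groups it was 875 between the contralateral arrays, and 505, 1525 and 1671 among the sham arrays. Sham array 2 was far from every other array, at 1057 or more, and among the 15 pairs of adult control arrays the count ran from 207 to 2205.

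**Figure D4:**
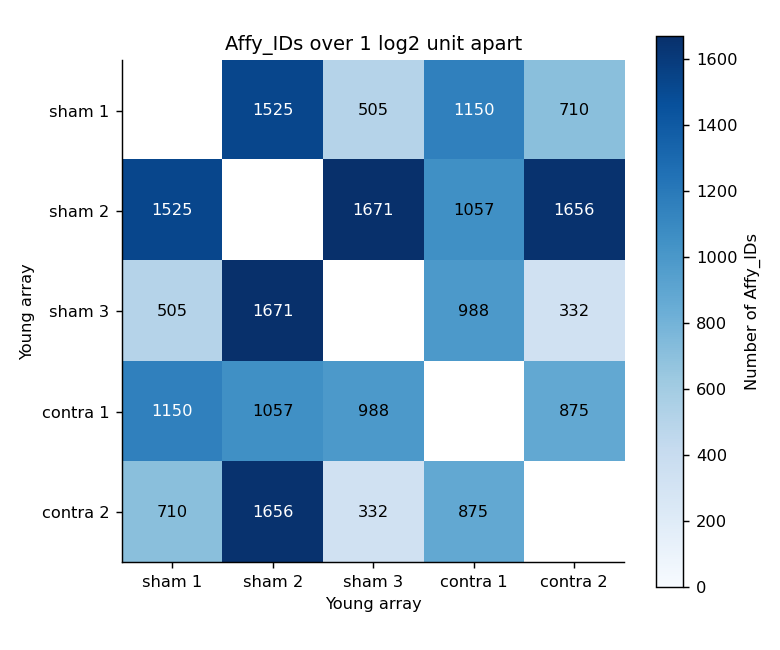
Number of Affy_IDs that differ by over 1 log2 unit between each pair of the 5 young control arrays, darker for more. The smallest count, 332, is between sham 3 and contralateral 2, and the largest, 1671, between sham 2 and sham 3.

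MHC class II genes lay apart between the groups for most members. RT1-Ba, the alpha chain of a class II molecule, read 10.18, 10.60 and 9.53 in sham arrays 1 to 3 and 7.97 and 5.51 in contralateral arrays 1 and 2. The groups did not overlap, and the contralateral mean was 3.36 lower, a fold of 10.3 (difference −3.36, 95% interval −4.72 to −2.00, limma adjusted p = 0.744). Another Affy_ID of RT1-Ba read 8.80, 8.82 and 7.38 in sham and 7.37 and 4.70 in contralateral. Its difference was smaller, at −2.30, and sham array 3 and contralateral array 1 were nearly equal. RT1-Da, another alpha chain, read 11.95, 11.87 and 10.64 in sham and 10.05 and 7.27 in contralateral, a difference of −2.83 (95% interval −4.35 to −1.31).

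The invariant chain Cd74, which guides class II molecules to the endosome, read 12.19, 12.16 and 11.10 in sham and 10.94 and 8.45 in contralateral. RT1-DMa, a chain of the peptide-loading molecule, read 5.67, 5.18 and 4.78 in sham and 4.15 and 2.76 in contralateral. Ciita, the coactivator that switches on class II promoters, read 4.15, 3.64 and 2.70 in sham and 2.67 and 2.67 in contralateral. Every sham array was above both contralateral arrays for these 3 genes, by a narrow margin between sham array 3 and contralateral array 1 for Cd74 and Ciita. For Ciita those values, 2.70 and 2.67, were at the floor, as in the adult controls (2.61 to 2.71), and carry no order. This list, like the macrophage and muscle lists, was added after the data were seen, so its shares are a description. Of the 8 genes, 7 were lower at an unadjusted p under 0.05 (0.802% of all Affy_IDs). The same number, Ciita included, lay below every sham array (4.68%). RT1-Bb was the exception, at 7.21, 8.74 and 7.04 in sham and 7.35 and 3.44 in contralateral.

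The median difference of the list was −2.19, beside 0.01 over all Affy_IDs, and it was −3.50 without contralateral array 1 and −1.08 without contralateral array 2. List means were 8.56, 8.71 and 7.54 in sham and 7.16 and 5.04 in contralateral. None of the 8 passed after adjustment over all Affy_IDs. Without contralateral array 1, RT1-Ba (difference −4.59, limma adjusted p = 0.0152) and RT1-Da (−4.22, adjusted p = 0.0379) did, with the lone contralateral array assumed to vary like the other groups. A fit with the mean of Atf3, Sprr1a, Gal and Vip as a covariate was added after the data were seen. In it the difference of RT1-Ba was −2.35 (SE 0.424, limma adjusted p = 0.406) and the list median moved from −2.19 to −1.10. The rule named these covariate genes, and their means were lower in contralateral DRG, so the covariate takes up part of the group difference itself. A cause of the change was not tested. In adults, 6 of the 8 lay below every sham array in contralateral DRG (1.99% of all Affy_IDs) and 0 above (2.68%), with list means of 6.83 to 7.39 in sham and 6.47 to 6.61 in contralateral and a median difference of −0.77.

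Macrophage genes followed in the same direction with smaller differences. Csf1r, the receptor on which macrophages depend, read 9.41, 9.43 and 8.82 in sham and 8.56 and 7.09 in contralateral, a difference of −1.40 (95% interval −2.48 to −0.31, limma adjusted p = 1.0). C1qc, a subunit of complement C1q, read 8.69, 8.98 and 7.36 in sham and 7.70 and 5.25 in contralateral. The groups were apart for Csf1r and overlapped for C1qc through sham array 3. Of 20 genes, 7 were lower (0.802% of all Affy_IDs) and 0 higher (1.44%) at an unadjusted p under 0.05, and 8 lay below every sham array (4.68%). Their median difference was −0.86, and it was −0.46 without contralateral array 2. With the mean of the 4 injury genes as a covariate, itself lower in contralateral DRG, it was −0.36. The list held 5 genes under 4 in all 5 arrays, Cx3cr1 and Itgam among them. In adult contralateral DRG 11 of the 20 lay below every adult sham array (1.99% of all Affy_IDs).

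Genes were ranked by difference among those with an unadjusted p under 0.05, no overlap and a highest value of at least 6. The 10 lowest were RT1-Ba, RT1-Da, RT1-Db1, Clec4a3, Cd74, Cybb, RT1-DMb, Tnfaip8l3, Mpeg1 and Adgre1. They include 5 genes of the MHC class II list, while Cybb, the catalytic subunit of the phagocyte oxidase, Mpeg1, a pore-forming protein of macrophages, and Adgre1, the F4/80 antigen, are macrophage genes outside the list. Cybb read 7.72, 7.53 and 6.28 in sham and 5.98 and 4.19 in contralateral. Another Affy_ID differed less for Cybb, by −0.43 with values of at most 3.50, and for RT1-Db1, by −1.26. Adgre1 read 6.90, 6.99 and 6.68 in sham and 6.02 and 4.85 in contralateral. Tnfaip8l3, a carrier of phosphoinositides, read 6.56, 6.05 and 6.26 in sham and 4.39 and 4.86 in contralateral, with the lower value in contralateral array 1. Of the 76 genes that met these conditions, 15 (19.7%) were also below every adult sham array in adult contralateral DRG, against 1.99% of all Affy_IDs, 2 were above, and 6 were in the adult SNI list. In pooled ganglia, fewer macrophages and less RNA per macrophage cannot be told apart.

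Among interferon genes, Mx1, an antiviral GTPase, read 5.75, 6.13 and 4.80 in sham and 4.55 and 4.32 in contralateral, and Gbp2 read 7.92, 7.51 and 7.42 in sham and 6.90 and 7.26 in contralateral. Neither overlapped between groups, and they were the 2 of 18 members lower at an unadjusted p under 0.05 (0.802% of all Affy_IDs). Of the 18, 4 lay below every sham array (4.68%) and 2 above (4.89%), and 12 had a difference below 0 (42.8%). The list's median difference was −0.24. Of 22 chemokine and cytokine genes, 2 were lower at an unadjusted p under 0.05 (Tslp and Ccl7; 0.802% of all Affy_IDs), 0 were higher (1.44%) and 14 were under 4 in all 5 arrays (40.8%). Il33, an alarmin of barrier and glial cells, read 10.31, 10.44 and 9.96 in sham and 9.83 and 9.21 in contralateral. T, B and NK cell genes were mostly at the floor, with 9 of 11 under 4 in all 5 arrays.

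**Figure D5:**
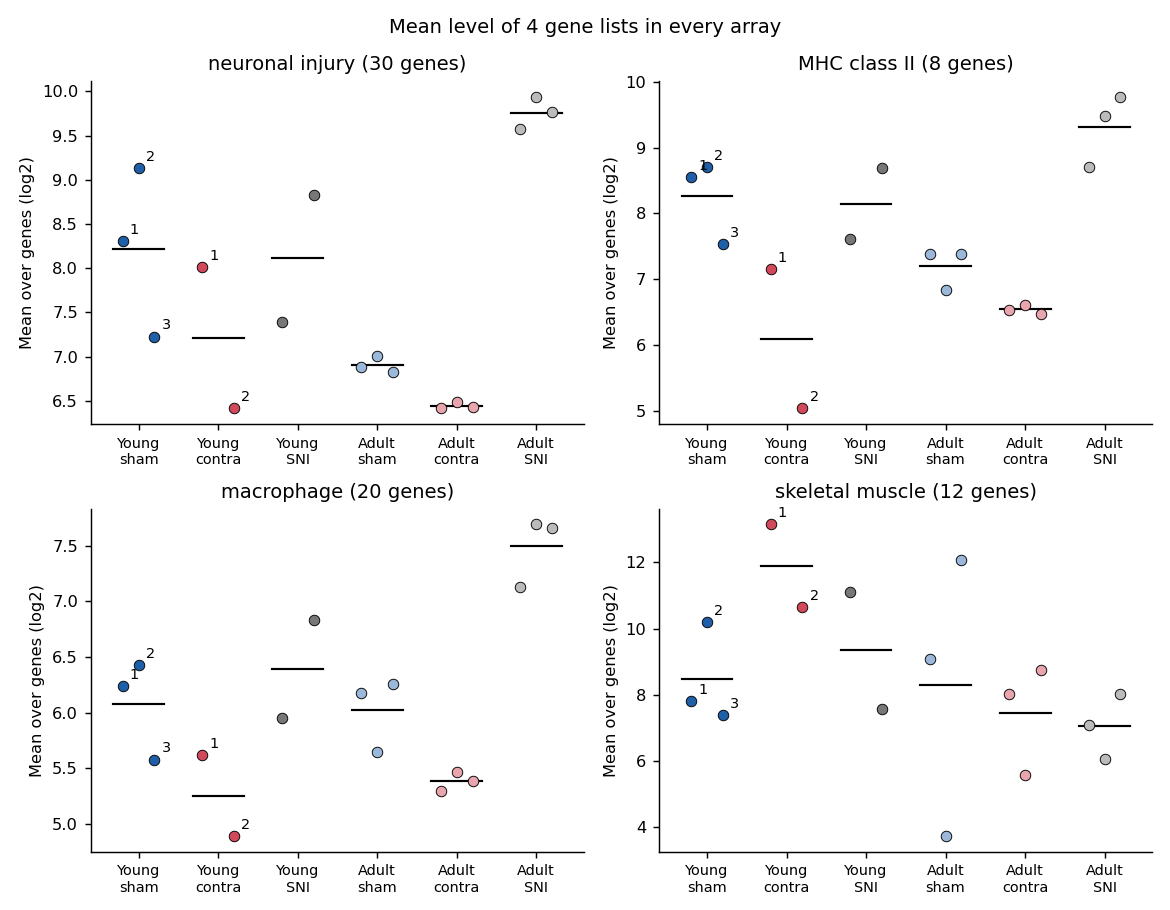
Mean log2 GC-RMA value of 4 gene lists in each of the 16 arrays, 1 point per array and a bar at each group mean; the young sham and contralateral arrays carry their replicate number. The groups overlap for the neuronal injury and macrophage lists, and both contralateral arrays lie below every sham array for MHC class II and above for skeletal muscle.

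Genes higher in contralateral DRG were led by skeletal muscle. Under the conditions used for the lowest genes, the 10 largest differences were those of Myl2, Actn2, Cox6a2, Tnni1, Myot, Mybpc1, Apobec2, Tnnt1, Hjv and Myoz2. These genes encode sarcomere proteins or are known from striated muscle. Myl2, the slow myosin light chain, read 5.90, 3.89 and 3.37 in sham arrays 1 to 3 and 13.21 and 7.61 in contralateral arrays 1 and 2, a difference of 6.02 (95% interval 1.31 to 10.73, limma adjusted p = 1.0). Apobec2, a muscle deaminase-family protein, read 2.96, 2.92 and 3.01 in sham and 8.45 and 6.94 in contralateral, a difference of 4.73 (95% interval 2.37 to 7.09). Tnni1, slow troponin I, read 3.24, 3.25 and 3.27 in sham and 11.70 and 5.16 in contralateral. Contralateral array 1 was the highest for all 3, and contralateral array 2 lay between it and the sham arrays.

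For the 12 muscle genes the mean was 7.82, 10.20 and 7.38 in sham and 13.15 and 10.64 in contralateral, and sham array 2 came within a short distance of contralateral array 2. Of the 12, 11 lay above every sham array (4.89% of all Affy_IDs), 1 (Ryr1) had an unadjusted p under 0.05 (1.44%), and the median difference was 3.44, or 4.52 without contralateral array 2 and 2.21 without contralateral array 1. In adults the same mean went from 3.73 to 12.06 within the sham group and from 5.57 to 8.75 in contralateral arrays, with a median difference of −0.61. Of the 96 genes higher by the same conditions, 58 (60.4%) were over 1 unit higher in adult sham array 3 than in adult sham array 2, against 3.21% of all Affy_IDs, and 88 were higher in contralateral array 1 than in array 2. The muscle mean was thus higher in both young contralateral arrays than in every young sham array, though none of the 12 genes passed. It varied between single pools at both ages.

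A fit with the muscle mean as a covariate was added after the data were seen. That mean was itself higher in both contralateral arrays than in every sham array, so the covariate takes up part of the group difference. In this fit 0 Affy_IDs passed. The median difference was −2.63 for MHC class II genes, −1.04 for macrophage genes and −0.58 for injury genes. Without Atf3, Sprr1a, Gal and Vip, the injury median was −0.51. Aqp4, a water channel of astrocytes and of fast muscle fibres, read 2.75, 4.33 and 2.85 in sham and 7.77 and 6.50 in contralateral, while 9 of the 10 central markers stayed under 4 in all 5 arrays. Of 5 red blood cell genes, 0 had an unadjusted p under 0.05 and 4 lay above every sham array (4.89% of all Affy_IDs), with Hbb at 12.71, 12.74 and 12.67 in sham and 13.14 and 13.54 in contralateral.

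Neuronal and glial lists had small median differences. The nociceptor list had a median difference of 0.08 with 0 of 18 genes at an unadjusted p under 0.05, and the satellite glia list −0.09 with 0 of 10. Scn8a, a sodium channel of nodes of Ranvier, was the exception among 16 large sensory neuron genes: it read 4.21, 3.62 and 4.55 in sham and 5.73 and 4.69 in contralateral, a difference of 1.08 (95% interval 0.46 to 1.70, limma adjusted p = 1.0). Pvalb, a calcium buffer of proprioceptors and of fast muscle, read 12.50, 12.46 and 12.37 in sham and 13.54 and 12.84 in contralateral. Both were highest in contralateral array 1, where the muscle list mean was also highest. With that mean as a covariate the difference of Scn8a was 1.12, and a cause was not tested. Ion channel genes had a median difference of 0.11 and 0 of 13 at a p under 0.05.

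Of 13 myelinating Schwann cell genes, 12 had a difference below 0 (42.8% of all Affy_IDs) and 4 lay below every sham array (4.68%), Gjb1, Fa2h and Cldn19 among them, with a median of −0.37 and none at an unadjusted p under 0.05. Fa2h, which makes hydroxylated myelin lipids, read 11.83, 11.55 and 11.62 in sham and 11.24 and 10.97 in contralateral. Cell cycle genes gave 7 of 19 below every sham array (4.68%) and 1, Mcm5, lower at an unadjusted p under 0.05 (0.802%). Of the 19, 7 were under 4 in all 5 arrays (40.8% of all Affy_IDs). Bub1, counted as below every sham array, read 3.35 in sham array 2 and 3.34 in contralateral array 2. Mcm5, a subunit of the replication helicase, read 4.88, 5.98 and 4.41 in sham and 3.80 and 4.35 in contralateral. The median differences were −0.12 for 13 cholesterol synthesis genes, −0.13 for 14 fibroblast and matrix genes, −0.16 for 11 vessel genes, −0.25 for 13 immediate early and heat shock genes and 0.01 for both 9 mast cell and neutrophil genes and 7 adipocyte genes.

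The last question was whether the contralateral minus sham difference depended on age. The interaction of age with the contrast passed for 0 of 31042 Affy_IDs (0.0%; 424 at an unadjusted p under 0.05), with a smallest limma adjusted p of 0.157. Without contralateral array 2 it passed for 136, without contralateral array 1 for 6, without sham array 1 for 2 and without adult sham array 2, adult sham array 3 or adult contralateral array 3 for 1 each. For RT1-Ba the adult difference was −1.26 against −3.36 in young rats, and the age difference was −2.11 (limma adjusted p = 1.0). Atf3 differed by −0.47 in adults. Vip differed by −2.91, with adult sham arrays at 4.62 to 6.37 and adult contralateral arrays at 1.89 to 2.59. Gal differed by −1.79, with adult sham arrays at 8.89 to 9.63 and adult contralateral arrays at 7.43 to 7.74. Of the 30 neuronal injury genes, those the rule named included, 8 lay below every adult sham array in adult contralateral DRG (1.99% of all Affy_IDs) and 0 above (2.68%). The sign was the same at both ages for 23 of them and opposite for 7. Across all Affy_IDs the young and the adult differences correlated at r = −0.043, a description over Affy_IDs that share a platform. The sign of the difference was opposite at the 2 ages for 11 of 12 muscle genes (Myh4, at 3.37 in young and 0.25 in adult rats, was the other), and for Myl2 it was 6.02 in young and −3.11 in adult rats. It was the same at both ages for 6 of 8 MHC class II genes, RT1-Bb and Ciita apart, and for 19 of 20 macrophage genes, with no age difference of these genes passing.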

How the data were processed

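Biotin-labelled RNA of pooled L4/L5 DRG was hybridised to Affymetrix rat expression arrays. Per the labels and methods, the authors applied GC-RMA to the scanned arrays and deposited the log2 values, rounded to 2 decimals; no source used here gives their versions of GCRMA and limma. After 57 Affymetrix control probe sets were dropped, 31042 Affy_IDs were tested (20826 with 1 gene symbol, 436 with several, 9780 with none), with no filter. A gene was represented by its Affy_ID of highest mean over 16 arrays. Means of the 6 groups were fitted to all 16 arrays with limma 3.58.1 (R 4.3.3), with 10 residual degrees of freedom, and the code was tested on simulated data. p-values were adjusted by the Benjamini-Hochberg method at 0.05. Tables were made with Python 3.11.15.

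Genes named were Atf3, Sprr1a, Gal and Vip; genes that passed; otherwise the 10 largest differences each way with an unadjusted p under 0.05, groups apart and a highest value of at least 6; list members, up to 5 by p or all of the neuronal injury and sex chromosome lists; the 15 of largest range in the order of the 4 genes; and those passing without 1 contralateral array. Other genes, the sequence motifs and all members of the MHC class II list were chosen after values were seen. The members and lists were chosen with earlier results of these data known. Alternatives were other variance settings, scalings, array subsets, covariates and each array left out. Precision is limited by the number of pools.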

Additional observations from a re-analysis of the deposited data

Results flagged for a closer look

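Sgca, the sarcoglycan gene with one of the smallest p-values, moved in opposite directions at the 2 ages: both young contralateral arrays were above every young sham array (a difference of 1.40), while the 3 adult contralateral arrays, at 1.94 to 2.36, were below the adult sham arrays, at 2.52 to 2.77. The limma interaction had an adjusted p of 0.157, and all these values are low on the array. Groups of 2 and 3 arrays were too small for a test of single outlying arrays.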

How the results depend on the processing

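The number of Affy_IDs passing between young contralateral and young sham DRG was 0 in most settings, 2 with an intensity trend, 2 with array weights and 4 with Xist as a covariate. Leaving out 1 array gave 0 to 204: 204 without contralateral array 2 (199 higher, led by Nrap at 9.01 in contralateral array 1 and 2.31 to 2.57 in sham), 24 without contralateral array 1 and 8 without sham array 3. The age difference passed for 1 with an intensity trend and for 0 to 136 when 1 array was left out. Over the arrays left out, the median difference ran from −3.50 to −1.08 for MHC class II. With the injury genes that the rule named as a covariate it was −1.10, and −0.36 for macrophage genes. Over the arrays left out it ran from −1.10 to −0.46 for macrophage genes and from 2.21 to 4.52 for skeletal muscle. For neuronal injury it ran from −0.995 to −0.22, and from −0.795 to −0.19 without Atf3, Sprr1a, Gal and Vip. For the adult SNI list it ran from −0.52 to −0.16. Of 1167 values for 43 genes, 3 newly passed, 1160 did neither and 4 changed sign: Sprr1a at 0.34 without contralateral array 2 (−5.00 without contralateral array 1) and at 1.36 with the injury genes as a covariate, and another Affy_ID at the floor for RT1-Ba (0.0083) and for Mpeg1 (0.0033). A replicate block left 0 passing. Its medians were −2.12 for MHC class II and −0.83 for injury genes (−0.58 without Atf3, Sprr1a, Gal and Vip). The replicate numbers are not known to pair the pools, since deviations of equally numbered contralateral and sham arrays correlated at −0.22 and −0.508. The MHC class II, macrophage and muscle lists and the injury and muscle covariates were added after seeing the data. The cause of these changes was not tested. Depth does not apply to arrays, and signals near the floor carry no order.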
